A study of Mus musculus with 46 samples.

Results

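Multipotent germline stem cells made by the Dnmt1 route (Dnmt mGS) were compared with induced pluripotent stem cells (iPS). Dnmt mGS are cells with an embryonic stem (ES) cell habit that arose from germline stem (GS) cells, the cultured form of mouse spermatogonial stem cells, after lentiviral knock-down of both p53 and Dnmt1. The iPS lines were reprogrammed by retroviruses carrying Oct4, Sox2, Klf4 and c-myc, and the labels do not name their cell of origin. Members were taken by sample label, as lines 1, 2 and 3 of Dnmt mGS and lines 1, 2 and 5 of iPS, with 2 cultures of each line. They made up 12 of the 46 arrays and 6 of the 23 lines of the study. Both groups carried the strain label DBA/2 with a GFP transgene and were grown on embryonic fibroblast feeders with serum and LIF. Before RNA extraction, feeder cells were depleted on gelatin-coated dishes. The iPS lines carried no p53 knock-down, so knock-down of p53, knock-down of Dnmt1 and the cell of origin cannot be told apart in the comparison with iPS. The 3 other lentiviral routes, with 9 lines, all carried the p53 knock-down and gave a second comparison: Dmrt mGS, in which Dmrt1 was knocked down as well, Sox2 mGS, which received Sox2, and Oct4 mGS, which received Oct4. Whether lines of a group came from separate animals or GS cultures is not stated, so p-values measure the spread between these lines only.

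Dnmt1 copies methyl marks onto the new DNA strand at replication, and a set of germline genes with CpG-rich promoters depends on those marks for its silence outside the germline. Slc25a31, which encodes the ADP/ATP carrier of male germ cell mitochondria, is a well studied gene of that set. Immediate-early genes such as Egr2, Fos and Jun are transcribed within minutes of a growth factor or serum signal through ERK, without new protein synthesis. The polycistronic miR-17-92 cluster and its relatives are highly transcribed in pluripotent cells and respond to Myc.

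The promoters of 4 germline genes that differed between the groups are shown because genes of this set are known for an E2F6 site (GCGGGA) or an E-box (CACGTG), through which silencing complexes are recruited. Each is the RefSeq window from 250 bases before to 50 bases after the gene's start in GRCm38.p6, 5′ to 3′ on the gene's strand, and capitals mark every CACGTG and every GCGGGA on either strand. The windows are chr3:40708621-40708920 (plus strand) for Slc25a31, chr15:85131908-85132207 (minus strand) for Smc1b, chr1:166238695-166238994 (minus strand) for Mael and chr9:50561219-50561518 (minus strand) for Tex12.
Slc25a31: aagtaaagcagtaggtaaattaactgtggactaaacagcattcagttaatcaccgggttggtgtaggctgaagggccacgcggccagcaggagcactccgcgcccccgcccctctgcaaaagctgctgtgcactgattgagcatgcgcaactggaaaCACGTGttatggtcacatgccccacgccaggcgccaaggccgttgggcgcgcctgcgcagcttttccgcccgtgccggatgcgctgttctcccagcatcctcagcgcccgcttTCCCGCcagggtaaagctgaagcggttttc
Smc1b: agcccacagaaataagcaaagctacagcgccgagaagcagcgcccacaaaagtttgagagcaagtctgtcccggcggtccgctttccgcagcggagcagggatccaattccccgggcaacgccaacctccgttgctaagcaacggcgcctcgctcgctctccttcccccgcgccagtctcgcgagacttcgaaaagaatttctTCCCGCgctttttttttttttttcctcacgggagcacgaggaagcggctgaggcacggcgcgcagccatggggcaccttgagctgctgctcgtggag
Mael: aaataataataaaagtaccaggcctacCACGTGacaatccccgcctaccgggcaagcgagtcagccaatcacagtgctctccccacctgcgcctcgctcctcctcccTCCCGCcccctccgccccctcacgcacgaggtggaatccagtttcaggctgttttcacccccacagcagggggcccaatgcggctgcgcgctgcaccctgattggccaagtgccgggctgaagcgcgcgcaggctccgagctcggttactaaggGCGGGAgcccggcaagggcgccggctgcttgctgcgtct
Tex12: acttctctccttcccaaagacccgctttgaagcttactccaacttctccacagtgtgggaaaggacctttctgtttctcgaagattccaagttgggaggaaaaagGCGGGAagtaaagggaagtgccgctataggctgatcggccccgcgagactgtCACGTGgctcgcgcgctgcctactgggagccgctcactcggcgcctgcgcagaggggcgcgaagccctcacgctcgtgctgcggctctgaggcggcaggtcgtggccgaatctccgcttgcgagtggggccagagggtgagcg
CACGTG began 93 bases before the start in Slc25a31 and in Tex12 and 223 bases before it in Mael, and Smc1b held only a GCGGGA match on the reverse strand, 47 bases before the start. Promoters could be matched for 15563 of the 19938 genes tested, and 8.4% of these held CACGTG and 27.7% held GCGGGA on either strand. Of the 40 measured genes in the list of methylation-silenced germline genes, 35 had a promoter, with CACGTG in 13 of them (37.1%) and GCGGGA in 17 (48.6%). CACGTG was found in 6 of 16 promoters of germline genes called higher in Dnmt mGS (37.5%) and in 7 of 19 of those not called (36.8%). GCGGGA was found in 6 of the 16 (37.5%) and in 11 of the 19 (57.9%). The median ratio of observed to expected CpG was 0.78 for the called and 0.70 for the uncalled germline genes, against 0.63 for all genes. These matches describe the windows only.

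The mature microRNAs of 3 related clusters are given next, because 12 of the 22 microRNA genes called lower in Dnmt mGS lie in these clusters and share few seeds (RefSeq, GRCm38.p6). Capitals mark the seed, bases 2 to 8.
miR-17-5p: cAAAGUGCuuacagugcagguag
miR-20a-5p: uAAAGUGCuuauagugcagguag
miR-106a-5p: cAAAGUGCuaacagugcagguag
miR-20b-5p: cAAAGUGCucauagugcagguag
miR-93-5p: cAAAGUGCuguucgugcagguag
miR-18a-5p: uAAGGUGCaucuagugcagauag
miR-19a-3p: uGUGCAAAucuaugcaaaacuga
miR-19b-3p: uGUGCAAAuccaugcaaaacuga
miR-92a-3p: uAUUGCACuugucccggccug
miR-363-3p: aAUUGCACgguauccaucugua
miR-25-3p: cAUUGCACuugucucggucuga
The first 5 share the seed AAAGUGC, miR-19a and miR-19b share GUGCAAA, and miR-92a, miR-363 and miR-25 share AUUGCAC. They come from the miR-17-92 cluster on chromosome 14, the miR-106a-363 cluster on chromosome X and the miR-106b-25 cluster on chromosome 5.

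Array medians over all genes were 237.0 to 267.6 intensity units in Dnmt mGS and 231.0 to 245.6 in iPS, with both of the highest Dnmt mGS values in line 3. Genes of olfactory receptors, which are silent in most tissues, set a background level of 161.1, the 95th percentile of 1027 such genes, and 12749 genes had a mean above it. Dnmt1 itself read 620, 2752 and 647 in Dnmt mGS 1, 2 and 3, against 2149, 2145 and 1999 in iPS 1, 2 and 5. The line labelled Dnmt mGS 2 therefore went against its label, in both of its cultures (2762 and 2742), whereas the other two lines lay below every iPS line. The difference in Dnmt1 was −1.02 ± 0.35 (adjusted p = 0.084, limma) with all lines. It was −0.65 without Dnmt mGS 1, −0.68 without Dnmt mGS 3 and −1.73 without the line labelled Dnmt mGS 2, a line singled out by its Dnmt1 value, so that last value is a description. Over 12656 genes above background, expressed as deviations from the median of the 20 lines that were not GS, the line labelled Dnmt mGS 2 correlated at r = 0.94 with Dmrt mGS 1, a line of another route, at 0.81 with Dnmt mGS 1 and at 0.05 with Dnmt mGS 3, where the genes are not independent replicates. Dmrt mGS 1 correlated at 0.80 with Dnmt mGS 1, whose correlation with Dnmt mGS 3 was 0.27. So Dnmt mGS 1, the line labelled Dnmt mGS 2 and Dmrt mGS 1 stood close together, and Dnmt mGS 3 stood apart from them. Counts are therefore given with and without the lines in question. Pluripotency markers bore out an ES-like identity in both groups: Nanog read 5120 to 7916 in Dnmt mGS and 4534 to 5930 in iPS, against 47.3 in GS, and Pou5f1 5102 to 5563 and 4539 to 5234, against 518 in GS. Zbtb16, which marks spermatogonial stem cells, read 133 to 151 in Dnmt mGS and 110 to 133 in iPS, all under the background level, against 11648 in GS. Other germline stem cell markers were above background but far below GS. Means in Dnmt mGS, iPS and GS were 230, 190 and 2106 for Gfra1, 317, 330 and 3646 for Dmrt1, and 272, 253 and 4818 for Ddx4.

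In the comparison of the 3 Dnmt mGS lines with the 3 iPS lines, 1370 of 19938 genes (6.87%) passed an adjusted p of 0.05 (limma on line means, Benjamini-Hochberg), 834 higher (4.18%) and 536 lower (2.69%) in Dnmt mGS. Of these, 143 were at least 2-fold higher and 80 at least 2-fold lower, and the median size of a called difference was 0.61 log2 units upward and −0.54 downward. The highest differences included those of the germline genes Smc1b and Gtsf1, and the lowest those of the Y-linked Eif2s3y and Uty, the X-linked Mid1 and the immediate-early genes Fosb and Fos. The lines of the groups did not overlap in 1354 of the called genes, and 1232 had a brighter group mean above background. Calling by limma favours genes whose lines do not overlap, so here and below the absence of overlap is a description and no separate evidence. The split of the calls moved with the scaling: it was 540 higher and 680 lower after quantile normalization, and 396 and 905 with arrays centred on their medians. The median difference over all genes was 0.046, 0.002 and −0.031 under the scaling as deposited, quantile normalization and centring.

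**Figure D1:**
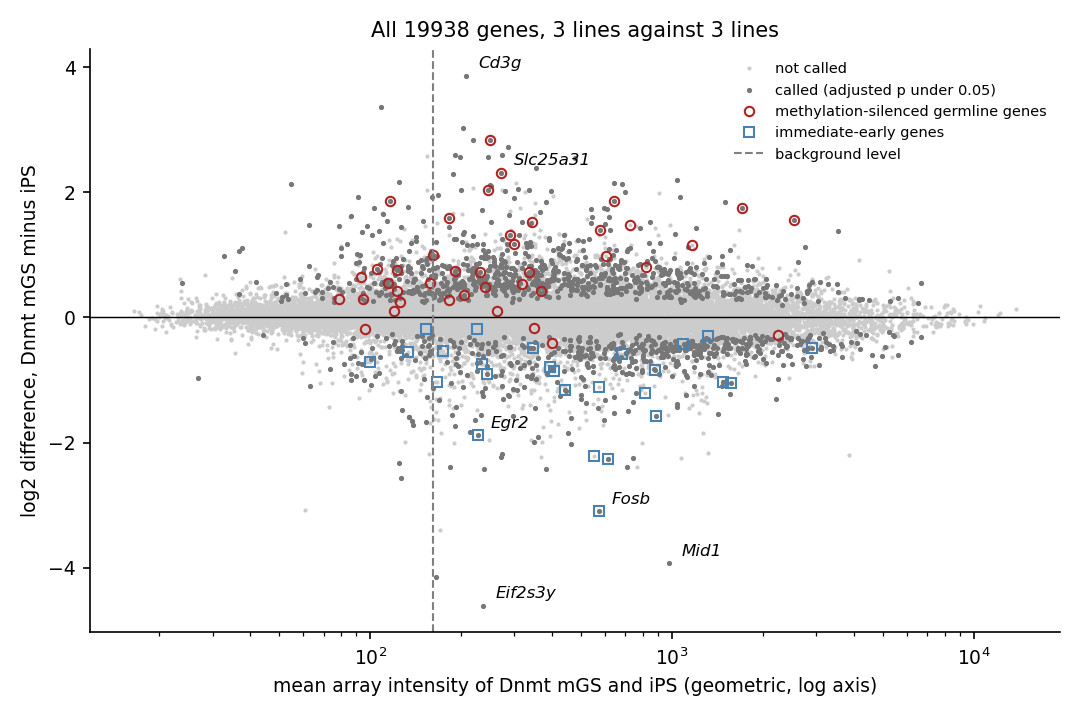
Log2 difference, Dnmt mGS minus iPS (vertical axis), against the geometric mean array intensity of the groups (horizontal log axis) for 19938 genes. Each dot is 1 gene, dark where called at an adjusted p of 0.05, with the 40 methylation-silenced germline genes circled and the 26 immediate-early genes boxed. Germline circles lie mostly above 0 (36 of 40) and all 26 immediate-early squares lie below it.

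Each fit without a line has fewer lines, and the number of calls changed with the line left out. It fell to 279 without iPS 2, 358 without Dnmt mGS 1, 507 without iPS 1, 765 without the line labelled Dnmt mGS 2 and 782 without iPS 5, and was 1859 without Dnmt mGS 3. Of the 1370 genes, 632 were among the 765 called without the line labelled Dnmt mGS 2. With Dmrt mGS 1 left out of the shared estimate of the spread, 2078 genes passed, and with the line labelled Dnmt mGS 2 and Dmrt mGS 1 both left out 1250 passed (691 higher and 559 lower), 986 of them among the 1370.

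Where values are listed below without line names, they run in the order Dnmt mGS 1, 2 and 3 and then iPS 1, 2 and 5, differences are log2 of Dnmt mGS over iPS ± limma's standard error with n = 3 lines per group, and adjusted p-values are limma's. Where a group mean was under the background level of 161.1, the fold is a lower bound, the mean of the brighter group divided by that level, and is written as at least N-fold. A value under background is a bound rather than a level. Where a call was lost without a line, the difference in that fit stands in brackets after the gene.

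Slc25a31 rose. It read 725, 755 and 405 in Dnmt mGS and 130, 74.3 and 186 in iPS, at least 3.76-fold higher (2.31 ± 0.32, adjusted p = 0.00098). Every Dnmt mGS line lay above every iPS line, and the call held without any one of the 6 lines (1.96 to 2.62). The Dnmt mGS mean of 605 was still far below the 4853 of GS cells. Against the other routes the gene was higher by 1.95 ± 0.26 (adjusted p = 0.00067), and their line values were 97.9 to 206 apart from Dmrt mGS 1 at 445.

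Among the 12 genes with the highest differences, several belong to the germline or to gene families of germ cells. Smc1b, a subunit of the cohesin that holds sister chromatids together in meiosis, read 755, 657 and 591 against 130, 48.1 and 131 (2.83 ± 0.73, adjusted p = 0.028). Gtsf1, a zinc finger protein of the piRNA pathway that silences transposons, read 770, 318 and 461 against 94.9, 71.7 and 80.1 (2.57 ± 0.48, adjusted p = 0.006). Both were under background in all 3 iPS lines and above it in all 3 Dnmt mGS lines. Nxf3, an X-linked member of the nuclear RNA export factor family, read 823, 291 and 832 against 71.6, 60.4 and 126 (2.84 ± 0.55, adjusted p = 0.007). Pramel6, a PRAME family gene of the early embryo, read 1113, 653 and 419 against 225, 81.0 and 75.1 (2.60 ± 0.59, adjusted p = 0.015). Pramel6 was under background in GS cells (70.5), unlike Smc1b (1536), Gtsf1 (1543) and Nxf3 (548).

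Other genes at the top are better known from other tissues or are uncharacterised. Cd3g, the gamma chain of the T cell receptor complex, read 1889, 1873 and 139 against 64.6, 52.8 and 46.9 (3.86 ± 0.99, adjusted p = 0.027), at least 4.9-fold higher. With values floored at the background level its call was lost (2.36, adjusted p = 0.083, limma). It was high in Dnmt mGS 1 and the line labelled Dnmt mGS 2 and under background in Dnmt mGS 3, and it read 1806 in Dmrt mGS 1 and at most 102 in the other 8 lines of the other routes. The neighbouring CD3 chains were not called: Cd3d differed by 0.41 ± 0.17 (adjusted p = 0.16) with both means under background, and Cd3e by 0.39 ± 0.16 (adjusted p = 0.15). Calr4, a calreticulin-like chaperone of the endoplasmic reticulum, read 529, 912 and 402 against 57.2, 54.4 and 116 (3.02 ± 0.56, adjusted p = 0.0055). Nckap1l, which encodes a subunit of the WAVE actin regulator in blood cells, read 824, 386 and 674 against 106, 93.2 and 104 (2.57 ± 0.35, adjusted p = 0.00095). Unlike Cd3g, both Calr4 and Nckap1l were above background in all 3 Dnmt mGS lines and below it in all 3 iPS lines. The glutamate transporter Slc1a1 differed by 2.72, the glutaminyl cyclase Qpct by 2.55, and the uncharacterised 1700013H16Rik, 1700016D06Rik and 1700018B24Rik by 3.37, 2.59 and 2.39. Cd3g (3.99), Smc1b (3.07), Slc1a1 (3.02) and 1700016D06Rik (2.79) lost their calls without iPS 1. Cd3g (3.84), Smc1b (2.35), Slc1a1 (2.54), Pramel6 (2.37), 1700016D06Rik (2.52), Qpct (2.49) and 1700018B24Rik (2.08) lost their calls without iPS 2. Cd3g (3.76), Slc1a1 (2.60), Pramel6 (2.32) and 1700016D06Rik (2.47) lost their calls without iPS 5. Cd3g (3.23), Smc1b (2.74), Slc1a1 (2.46), Pramel6 (2.24), 1700016D06Rik (2.10), Qpct (2.20) and 1700018B24Rik (1.95) lost their calls without Dnmt mGS 1. Cd3g (3.24), Smc1b (2.84), Slc1a1 (2.29) and 1700016D06Rik (2.13) lost their calls without the line labelled Dnmt mGS 2. The calls of 1700013H16Rik, Calr4, Nxf3, Nckap1l and Gtsf1 held without any one line.

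Among the genes with the lowest differences were 2 that are Y-linked. Eif2s3y, a translation initiation factor subunit, read 31.0, 27.6 and 127 against 1208, 1113 and 1176 (−4.61 ± 0.95, adjusted p = 0.0097), and Uty, a histone demethylase, read 28.8, 30.0 and 69.6 against 657, 687 and 731 (−4.14 ± 0.90, adjusted p = 0.013). As bounds, they were at least 7.23-fold and at least 4.29-fold lower. All 3 Dnmt mGS lines were under background for both genes and all 3 iPS lines were well above it. Zfy1, another Y-linked gene, was not called: it read 19.2, 24.1 and 19.9 against 307, 66.4 and 268, with iPS 2 under background (−3.07 ± 1.05, adjusted p = 0.087). Kdm5d and Usp9y read near or under background in both groups, and Xist, the RNA that silences an X chromosome, read 189, 113 and 680 against 109, 134 and 229 without a call. In the other routes Eif2s3y read 371, 733 and 197 in the Dmrt mGS lines and 170, 135 and 227 in the Sox2 mGS lines. It read 160, 107 and 1328 in the Oct4 mGS lines, and 45.1 and 1006 in the mGS lines that arose spontaneously. Uty (−4.15) lost its call without iPS 2. Eif2s3y (−4.30) and Uty (−3.92) lost their calls without Dnmt mGS 1.

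Mid1, an X-linked ubiquitin ligase of microtubules, was 15.2-fold lower, with 283, 166 and 337 against 3671, 3655 and 4143 (−3.93 ± 0.49, adjusted p = 0.00057). Its mean of 251 in Dnmt mGS was near the 266 of ES cells, so the iPS lines were the high group. Aard, an alanine- and arginine-rich protein of the developing testis, read 103, 110 and 96.4 against 833, 407 and 495 (−2.42 ± 0.39, adjusted p = 0.0025). Its means were 85.8 to 129 in the other routes, 250 in ES cells and 493 in the mGS lines that arose spontaneously (965 and 252). Both calls held without any one line. Further genes of the lowest 12 were the receptor genes Lpar6 (−2.42) and Ramp3 (−2.39), the integrin activator Fermt1 (−2.33), the desmosome gene Perp and the kinase gene Plk2, the immediate-early genes Fosb and Fos, and Mir363. Lpar6 (−2.31) and Fermt1 (−2.25) lost their calls without iPS 2. Lpar6 (−2.32) and Fermt1 (−2.13) lost their calls without iPS 5. Lpar6 (−2.26), Ramp3 (−2.09) and Fermt1 (−2.13) lost their calls without Dnmt mGS 1. Lpar6 (−2.23) and Fermt1 (−2.08) lost their calls without the line labelled Dnmt mGS 2. Fermt1 also lost its call with values floored at background (−0.79).

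Of 40 measured methylation-silenced germline genes, 17 rose in Dnmt mGS, 0 fell and 23 were not called, against 4.18% of all genes called higher. The median difference of the list was 0.74, against 0.05 for all genes, and 36 of the 40 members were above 0. The summed intensity of the list was 28772, 27179 and 22129 in the Dnmt mGS lines and 15470, 10020 and 14568 in the iPS lines, so every Dnmt mGS line was above every iPS line. In GS cells the sum was 139469 to 152250, well above both groups. Of the 40 genes, 30 had a brighter group mean above background.

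Several of the 17 serve meiotic chromosomes, among them the cohesin gene Smc1b described above. Majin, which ties meiotic telomeres to the nuclear envelope, read 683, 494 and 370 against 159, 111 and 102 (2.04 ± 0.39, adjusted p = 0.0061). Sycp1, a backbone protein of the synaptonemal complex, read 444, 592 and 361 against 189, 152 and 215 (1.31 ± 0.24, adjusted p = 0.0055). Its partner Syce1 read 1240, 1086 and 619 against 403, 292 and 382 (1.40 ± 0.39, adjusted p = 0.038). These genes were present in all 3 Dnmt mGS lines and lowest in iPS 2 or iPS 5. Meioc, needed for germ cells to keep to the meiotic programme, rose 3.64-fold, with 1295, 1054 and 1348 against 315, 238 and 507 (1.87 ± 0.40, adjusted p = 0.012). Sycp2, another synaptonemal protein, was called at 0.77 ± 0.15 (adjusted p = 0.0081) with both group means under background.

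Genes of the piRNA pathway and of germ cell granules formed a second set. Mael, which acts in piRNA silencing of transposons, read 4583, 4363 and 4067 against 1976, 833 and 1967 (1.55 ± 0.35, adjusted p = 0.014), a 2.93-fold rise. Asz1, a scaffold of the granules in which piRNAs are made, read 340, 268 and 121 against 67.1, 52.3 and 64.7 (1.87 ± 0.35, adjusted p = 0.0058). Stk31, a germ cell protein with a tudor and a kinase-like domain, differed by 1.59 ± 0.40 (adjusted p = 0.025). Asz1 was under background in Dnmt mGS 3 and in every iPS line, whereas Mael was above it in all 6 lines. Ddx4, the helicase long used as a germ cell marker, did not join them: it read 221, 385 and 236 against 211, 201 and 383 (0.10 ± 0.27, adjusted p = 0.88).

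The remaining called members serve metabolism, transcription and RNA export or have an unclear role. Tuba3a, a testis alpha-tubulin, read 4351, 2652 and 2627 against 1475, 611 and 889 (1.75 ± 0.48, adjusted p = 0.036). Tktl1, a transketolase-like protein, differed by 1.18 ± 0.22 (adjusted p = 0.006), the RNA export factor Nxf2 by 1.0 ± 0.22 (adjusted p = 0.013) and the germ cell TFIID subunit Taf7l by 0.76 ± 0.14 (adjusted p = 0.0055), with both Taf7l means under background. Rhox13 (0.74), Pramel1 (0.73) and Cpxm1 (0.72) had smaller differences. Tuba3a and Nxf2 have near-identical copies whose probes may be shared. Nxf2 was highest in Dnmt mGS 1 (386, against 161 and 192) and its difference fell to 0.62 without that line. Dazl, an RNA-binding protein of germ cells, read 1365, 2094 and 617 against 538, 307 and 500 and was not called (1.47 ± 0.51, adjusted p = 0.089). Hormad1, a meiotic axis protein, read 1693, 1743 and 1761 against 1076, 455 and 960 and was not called either (1.16 ± 0.43, adjusted p = 0.12), although the lines of neither gene overlapped.

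**Figure D2:**
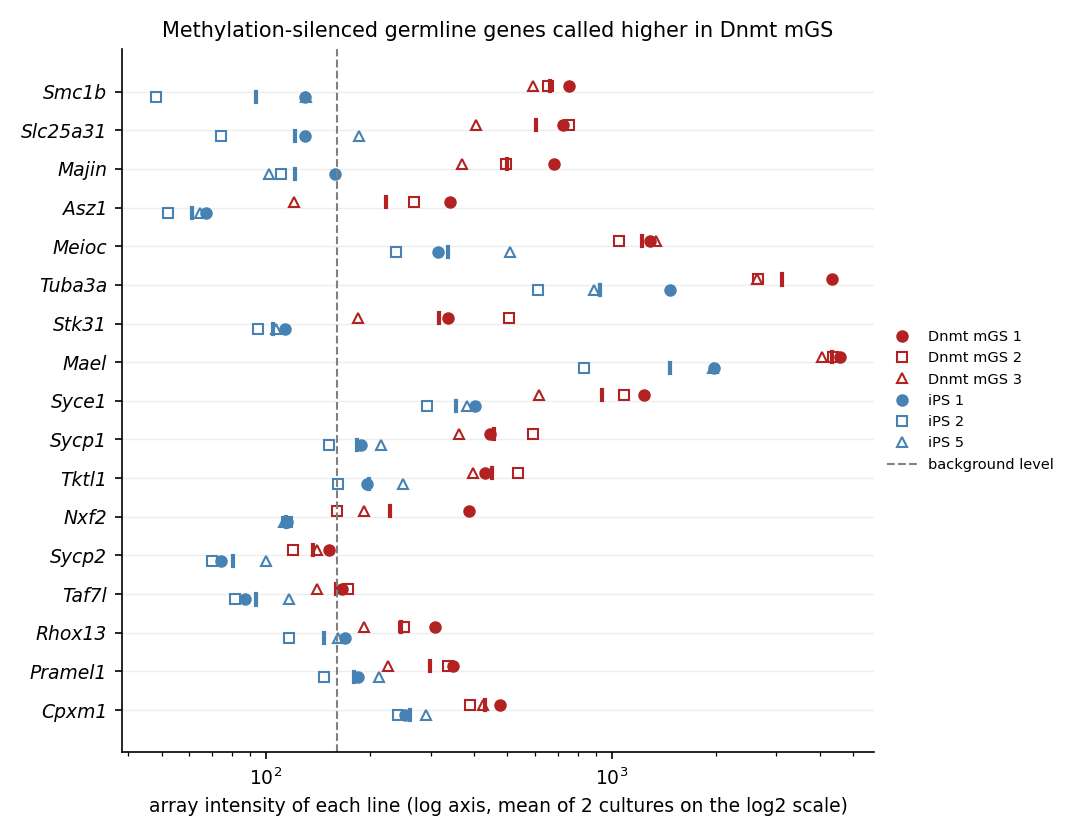
Array intensity (log axis) of the 17 methylation-silenced germline genes called higher in Dnmt mGS, ordered by log2 difference. Each symbol is 1 line (mean of 2 cultures on the log2 scale), the upright bar is the geometric mean of a group and the dashed line the background level. No gene has overlapping lines. Slc25a31 follows Smc1b in this order, and the iPS means of both are under background, so their ranks rest on bounds.

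Without iPS 2 the count of germline genes called higher fell from 17 to 7, and without Dnmt mGS 1 to 10. It was 12 without the line labelled Dnmt mGS 2, 19 without Dnmt mGS 3 and 15 with the line labelled Dnmt mGS 2 and Dmrt mGS 1 both left out. Stk31 (1.65), Syce1 (1.5) and Pramel1 (0.76) lost their calls without iPS 1. Meioc (1.62), Tuba3a (1.45), Stk31 (1.51), Mael (1.14), Syce1 (1.26), Nxf2 (1.0), Sycp2 (0.67), Rhox13 (0.57) and Pramel1 (0.59) lost their calls without iPS 2. Tuba3a (1.72), Stk31 (1.60) and Syce1 (1.46) lost their calls without iPS 5. Meioc (1.83), Tuba3a (1.51), Stk31 (1.54), Mael (1.51), Syce1 (1.21), Rhox13 (0.58) and Pramel1 (0.62) lost their calls without Dnmt mGS 1. Tuba3a (1.86), Stk31 (1.25), Syce1 (1.30) and Pramel1 (0.65) lost their calls without the line labelled Dnmt mGS 2. The calls of Slc25a31, Majin, Asz1, Sycp1, Tktl1, Taf7l and Cpxm1 held without any one of the 6 lines. With values floored at background the list had 14 calls, and Nxf2 (0.52), Taf7l (0.06) and Sycp2 (0.00) lost theirs.

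In a separate list of 25 meiosis and piRNA genes, 3 rose, 1 fell and 21 were not called, with a median of 0.17, against 4.18% of all genes called higher and 2.69% called lower. Hormad2, which watches over unsynapsed chromosomes, read 328, 669 and 328 against 134, 47.0 and 96.9 (2.29 ± 0.54, adjusted p = 0.018), and Tex12, a central element protein of the synaptonemal complex, read 153, 271 and 136 against 63.0, 30.5 and 53.7 (1.92 ± 0.34, adjusted p = 0.0039). For Tex12 only the line labelled Dnmt mGS 2 was above background, the fold was at least 1.11, and with values floored at background the call was lost (0.25, adjusted p = 0.32, limma). Stra8, the retinoic acid target that opens meiosis, was called at 0.62 ± 0.17 (adjusted p = 0.04) with both means under background, and lost its call with the floor too (0.10). Tdrd5, a tudor protein of germ cell granules, went the other way, with 153, 113 and 206 against 278, 392 and 442 (−1.25 ± 0.33, adjusted p = 0.03). The lines of the groups did not overlap in any of these genes. Stra8 (0.67) lost its call without iPS 1. Hormad2 (1.87), Stra8 (0.60) and Tdrd5 (−1.20) lost their calls without iPS 2. Stra8 (0.59) and Tdrd5 (−1.11) lost their calls without iPS 5. Hormad2 (2.46), Stra8 (0.70) and Tdrd5 (−1.25) lost their calls without Dnmt mGS 1. Hormad2 (1.95), Stra8 (0.45) and Tdrd5 (−1.04) lost their calls without the line labelled Dnmt mGS 2. Of 32 spermatogonial stem and progenitor genes, 0 rose and 1 fell: Taf4b, a germ cell TFIID subunit, read 889, 870 and 808 against 1232, 1225 and 1102 (−0.47 ± 0.09, adjusted p = 0.0077). Their median difference was −0.05.

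All 26 measured immediate-early genes were below 0, and 11 of them fell in Dnmt mGS while 0 rose, against 2.69% of all genes called lower. The median difference of the list was −0.85, and its summed intensity was 12158, 11416 and 16303 in Dnmt mGS against 22716, 25513 and 26352 in iPS. No Dnmt mGS line reached an iPS line. In ES lines the sum was 21347 to 24062, and in GS lines 19765 to 24157.

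Egr2, a zinc finger factor induced by serum and FGF, read 115, 115 and 127 against 397, 518 and 407, at least 2.71-fold lower (−1.88 ± 0.25, adjusted p = 0.00078). All 3 Dnmt mGS lines were under background and the call held without any one line (−1.95 to −1.76). Its relative Egr1 fell 2.07-fold, from 1891, 2470 and 2465 in iPS to 966, 1271 and 1062 (−1.05 ± 0.12, adjusted p = 0.00036), and also kept its call without any one line.

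The AP-1 genes had the largest differences of the list. Fosb read 201, 107 and 348 against 1352, 1548 and 2251 (−3.10 ± 0.74, adjusted p = 0.02), an 8.56-fold fall, and Fos 366, 182 and 334 against 1183, 1455 and 1403 (−2.25 ± 0.58, adjusted p = 0.029). Jun, their partner in AP-1, read 609, 301 and 740 against 1344, 1570 and 1685 (−1.57 ± 0.42, adjusted p = 0.034), and Junb 267, 207 and 471 against 695, 705 and 589 (−1.16 ± 0.33, adjusted p = 0.044). In all 4 genes the line labelled Dnmt mGS 2 was the lowest. Klf6 fell by 1.04, the small Maf factor Maff by 0.91, the serum response factor Srf by 0.84, Ier2 by 0.79 and the anti-apoptotic Mcl1 by 0.49 on the log2 scale. Srf read 640, 674 and 658 against 1041, 1198 and 1290, with little spread in either group.

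**Figure D3:**
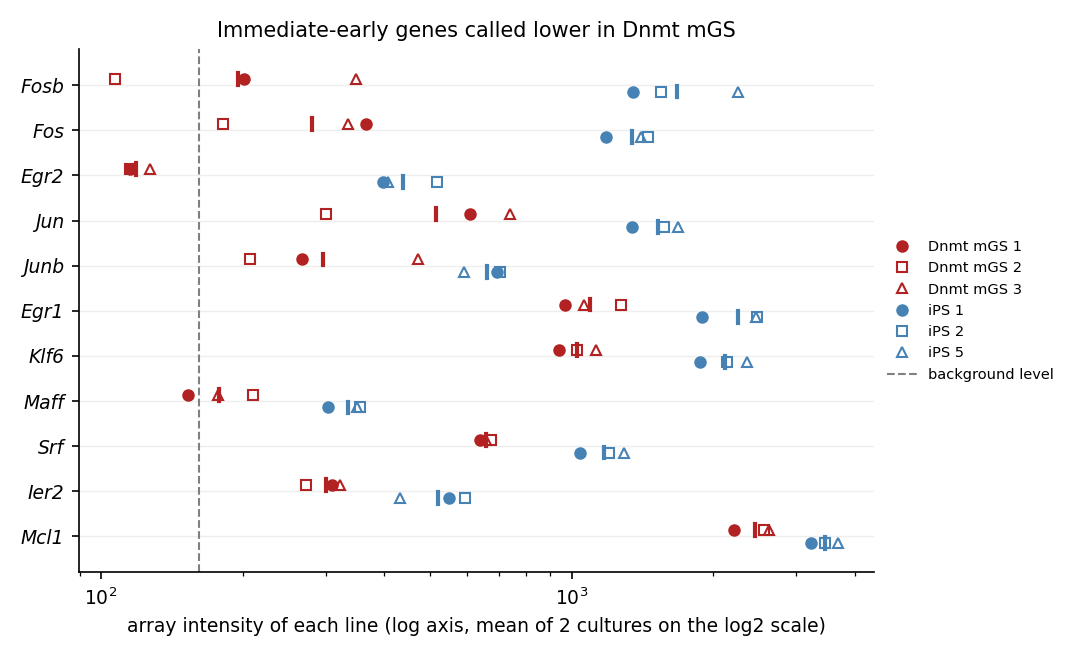
Array intensity (log axis) of the 11 immediate-early genes called lower in Dnmt mGS, ordered by log2 difference. Each symbol is 1 line (mean of 2 cultures on the log2 scale), the upright bar is the geometric mean of a group and the dashed line the background level. Egr2 is under background in all 3 Dnmt mGS lines, and Fosb is farthest apart.

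The count of 11 fell to 2 without iPS 2, 3 without iPS 5, 3 without Dnmt mGS 1, 4 without iPS 1 and 5 without the line labelled Dnmt mGS 2, and was 15 without Dnmt mGS 3 and 11 with the line labelled Dnmt mGS 2 and Dmrt mGS 1 both left out. In each of these fits all 26 genes stayed below 0. Fosb (−3.25), Fos (−2.34), Jun (−1.66), Junb (−1.12), Klf6 (−1.13), Maff (−0.98) and Srf (−0.92) lost their calls without iPS 1. Fosb (−3.15), Fos (−2.20), Jun (−1.55), Junb (−1.11), Klf6 (−1.03), Maff (−0.87), Srf (−0.82), Ier2 (−0.69) and Mcl1 (−0.49) lost their calls without iPS 2. Fosb (−2.88), Fos (−2.22), Jun (−1.5), Junb (−1.24), Klf6 (−0.96), Maff (−0.88), Srf (−0.77) and Mcl1 (−0.44) lost their calls without iPS 5. Fosb (−3.12), Fos (−2.44), Jun (−1.69), Junb (−1.08), Klf6 (−0.97), Maff (−0.80), Srf (−0.82) and Mcl1 (−0.41) lost their calls without Dnmt mGS 1. Fosb (−2.66), Fos (−1.94), Jun (−1.19), Junb (−0.90), Klf6 (−1.04) and Srf (−0.85) lost their calls without the line labelled Dnmt mGS 2.

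Of 23 ERK feedback and FGF response genes, 0 rose, 4 fell and 19 were not called, with a median of −0.74, against 2.69% of all genes called lower. Fgfbp1, a carrier that releases FGFs from the matrix, read 145, 158 and 237 against 654, 694 and 738 (−1.98 ± 0.27, adjusted p = 0.00079) and kept its call without any one line. The phosphatase gene Dusp4 read 133, 242 and 423 against 771, 957 and 849 (−1.84 ± 0.43, adjusted p = 0.017). Fgfr2, an FGF receptor, was lower by at least 1.66-fold (−0.88 ± 0.22, adjusted p = 0.025), and the phosphatase gene Dusp1 by 1.69-fold (−0.76 ± 0.18, adjusted p = 0.021). Dusp4 (−1.76), Fgfr2 (−1.0) and Dusp1 (−0.72) lost their calls without iPS 2. Fgfr2 (−0.61) and Dusp1 (−0.74) lost their calls without iPS 5. Dusp4 (−1.42), Fgfr2 (−0.79) and Dusp1 (−0.83) lost their calls without Dnmt mGS 1. Fgfr2 (−0.77) and Dusp1 (−0.62) lost their calls without the line labelled Dnmt mGS 2. The count was 1 without iPS 2, 1 without Dnmt mGS 1, 2 without iPS 5, 2 without the line labelled Dnmt mGS 2 and 8 without Dnmt mGS 3.

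Spry4 and Dusp6, uncalled genes chosen after their values were seen, and Myc split the Dnmt mGS lines. Spry4, an inhibitor of the pathway, read 159, 104 and 2263 against 1956, 1710 and 1602 (−2.39 ± 0.98, adjusted p = 0.15). Dusp6, the ERK phosphatase, read 252, 229 and 1092 against 1416, 1744 and 1633 (−2.0 ± 0.7, adjusted p = 0.091). Myc, a target of the pathway and a factor used to make the iPS lines, read 192, 55.4 and 1551 against 1206, 1245 and 1116 (−2.22 ± 1.04, adjusted p = 0.22). In each, Dnmt mGS 1 and the line labelled Dnmt mGS 2 were far below iPS, while Dnmt mGS 3 was above the iPS lines for Spry4 and Myc and between the groups for Dusp6. Dmrt mGS 1 was low as well, with 112 for Spry4 and 69.6 for Myc.

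MicroRNA genes were looked at because several were among the lowest genes, so this family was chosen after its values were seen. The probe sets of these genes read the primary or precursor transcript, not the mature microRNA, and many were under background. Of 296 microRNA genes, 3 were called higher and 22 lower, with a median of 0.02 over the family, against 4.18% and 2.69% of all genes. Of the 22, 12 lie in the 3 clusters and 10 outside them. The count of lower calls was 31 after quantile normalization and 30 with centring, and 17 to 22 when any one line was left out. Mir17hg, the host transcript of the miR-17-92 cluster, read 145, 200 and 177 against 497, 527 and 516, a 2.97-fold fall (−1.57 ± 0.26, adjusted p = 0.0029).

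All 5 measured hairpin genes of the miR-17-92 cluster were called lower. Mir18 read 112, 159 and 111 against 559, 600 and 604, at least 3.64-fold lower (−2.23 ± 0.32, adjusted p = 0.0011). Mir19a read 105, 164 and 122 against 527, 583 and 632, at least 3.59-fold lower (−2.18 ± 0.34, adjusted p = 0.0019). The line labelled Dnmt mGS 2 was the highest Dnmt mGS line in each and stayed far below iPS. Mir20a differed by −1.72 ± 0.26, Mir19b-1 by −1.55 ± 0.24 and Mir17 by −0.88 ± 0.11, the last with both means under background.

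The related cluster on chromosome X gave the same direction. Mir363 read 40.9, 45.1 and 76.7 against 279, 312 and 332 (−2.56 ± 0.46, adjusted p = 0.0048), Mir19b-2 67.4, 94.8 and 72.4 against 239, 229 and 263 (−1.65 ± 0.17, adjusted p = 0.00012), and Mir92-2 117, 157 and 143 against 289, 277 and 327 (−1.11 ± 0.11, adjusted p = 0.00011). Mir106a (−0.83 ± 0.13) and Mir20b (−1.09 ± 0.17) were called with both means under background. From the third cluster Mir25 fell 1.90-fold (237, 253 and 259 against 523, 495 and 409) and Mir93 by 1.40-fold, while Mir106b was not called (−0.25 ± 0.13, adjusted p = 0.28). The protein gene that hosts this cluster, the replication helicase subunit Mcm7, was not called (−0.28 ± 0.09, adjusted p = 0.061). Mir93 (−0.45) lost its call without iPS 1. Mir93 (−0.47) lost its call without iPS 2. Mir93 (−0.45) lost its call without Dnmt mGS 1. Mir93 (−0.51) lost its call without the line labelled Dnmt mGS 2. The other calls of hairpin genes in the 3 clusters held without any one line. Calls were therefore made for members of all 3 shared seeds and for miR-18a, whose seed is AAGGUGC. Outside these clusters 10 genes were called lower. Mir15b (−1.48), Mirlet7d (−1.24), Mir677 (−0.76), Mirlet7e (−0.64) and Mir30b (−0.60) had iPS means above background, while Mir301 (−1.09), Mirlet7f-1 (−1.01), Mir16-2 (−0.74), Mir3068 (−0.54) and Mir325 (−0.44) had both means under it. The 3 called higher were Mir713 (0.89), Mir340 (0.75) and Mir216b (0.37), the last 2 of them with both means under background. With values floored at background, calls were lost for Mir106a, Mir301, Mir3068 and Mir713 (0.28). Mir301 (−1.13), Mir677 (−0.66), Mirlet7e (−0.67), Mir325 (−0.39), Mir340 (0.81) and Mir216b (0.41) lost their calls without iPS 1. Mir301 (−1.11), Mir677 (−0.71), Mirlet7e (−0.62), Mir325 (−0.41), Mir340 (0.76) and Mir216b (0.34) lost their calls without iPS 2. Mir301 (−1.02), Mirlet7e (−0.63), Mir340 (0.67) and Mir216b (0.35) lost their calls without iPS 5. Mir301 (−1.02), Mir677 (−0.78), Mirlet7e (−0.55), Mir325 (−0.42), Mir713 (0.87) and Mir340 (0.74) lost their calls without Dnmt mGS 1. Mirlet7e (−0.61), Mir325 (−0.48), Mir713 (0.79), Mir340 (0.58) and Mir216b (0.26) lost their calls without the line labelled Dnmt mGS 2. Mir301 (−0.93) and Mir325 (−0.41) lost their calls without Dnmt mGS 3. The let-7 family is known for acting against the pluripotent state.

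**Figure D4:**
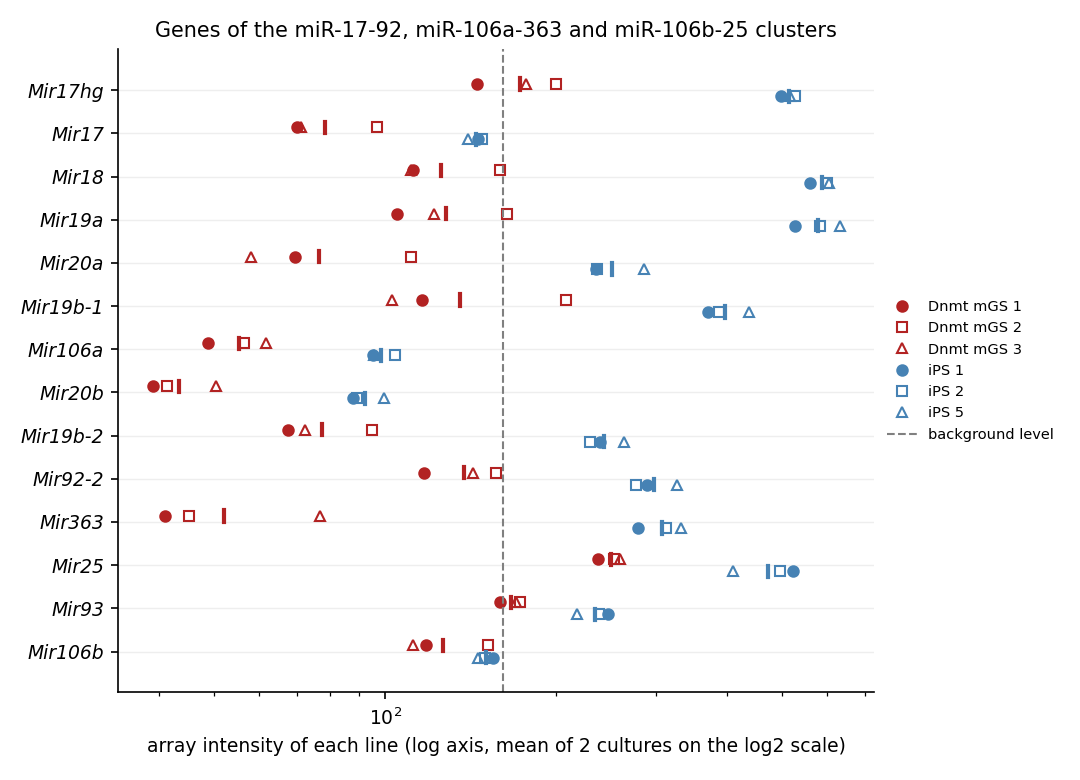
Array intensity (log axis) of Mir17hg and 13 hairpin genes of the miR-17-92, miR-106a-363 and miR-106b-25 clusters. Each symbol is 1 line (mean of 2 cultures on the log2 scale), the upright bar is the geometric mean of a group and the dashed line the background level. All genes other than Mir106b have Dnmt mGS lines below every iPS line, and 4 have both group means under background.

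Of 29 p53 targets, 0 rose and 5 fell, with a median of −0.50, against 2.69% of all genes called lower. Perp, a desmosomal protein with a part in apoptosis, read 250, 136 and 864 against 1162, 1745 and 2106 (−2.39 ± 0.59, adjusted p = 0.023). The polo-like kinase gene Plk2 read 201, 239 and 819 against 1389, 1932 and 1576 (−2.25 ± 0.50, adjusted p = 0.014). Both were lowest in Dnmt mGS 1 and the line labelled Dnmt mGS 2 and intermediate in Dnmt mGS 3. The death receptor gene Eda2r differed by −1.49 ± 0.42 (adjusted p = 0.038), the spindle gene Psrc1 by −1.22 ± 0.36 (adjusted p = 0.046) and the nuclease gene Aen by −0.70 ± 0.17 (adjusted p = 0.02). The established target Mdm2 was not called (−0.78, adjusted p = 0.076). Without Dnmt mGS 1, the line labelled Dnmt mGS 2 or iPS 2 the count was 0, without iPS 1 it was 2, without iPS 5 it was 1, and without Dnmt mGS 3 it was 14. Eda2r (−1.58), Psrc1 (−1.29) and Aen (−0.73) lost their calls without iPS 1. Perp (−2.34), Plk2 (−2.12), Eda2r (−1.46), Psrc1 (−1.24) and Aen (−0.68) lost their calls without iPS 2. Perp (−2.21), Eda2r (−1.44), Psrc1 (−1.15) and Aen (−0.70) lost their calls without iPS 5. Perp (−2.24), Plk2 (−1.87), Eda2r (−0.93), Psrc1 (−0.73) and Aen (−0.56) lost their calls without Dnmt mGS 1. Perp (−1.80), Plk2 (−1.99), Eda2r (−1.56), Psrc1 (−1.26) and Aen (−0.64) lost their calls without the line labelled Dnmt mGS 2. Against the other routes, which carried the p53 knock-down too, 2 targets were higher and 2 lower, where 8.86% and 10.4% of all genes were.

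Of 28 genes of the interferon response and antigen presentation, 6 rose and 0 fell, with a median of 0.34, against 4.18% of all genes called higher. Xaf1, an interferon-induced promoter of apoptosis, read 778, 739 and 312 against 173, 112 and 137 (2.03 ± 0.45, adjusted p = 0.014). Ifi27 read 401, 573 and 570 against 194, 134 and 167 (1.64 ± 0.35, adjusted p = 0.012), and the RNA sensor Oas1a 286, 407 and 248 against 161, 121 and 121 (1.21 ± 0.28, adjusted p = 0.016). The transcription factor Stat2 rose by 0.88 and Ifi35 by 0.80, while Mx1 was called at 0.25 with both means under background. The antiviral genes Ifit1 (0.56, adjusted p = 0.64) and Oasl2 (−1.09, adjusted p = 0.55) were not called. No line of Dnmt mGS overlapped iPS in the called genes. The count was 0 without iPS 2, 1 without Dnmt mGS 1, 1 without the line labelled Dnmt mGS 2, 3 without iPS 1 and 6 without Dnmt mGS 3. Stat2 (0.91), Ifi35 (0.74) and Mx1 (0.29) lost their calls without iPS 1. Xaf1 (1.87), Ifi27 (1.5), Oas1a (1.14), Stat2 (0.82), Ifi35 (0.79) and Mx1 (0.24) lost their calls without iPS 2. Oas1a (1.14) and Mx1 (0.24) lost their calls without iPS 5. Xaf1 (1.79), Oas1a (1.26), Stat2 (0.92), Ifi35 (0.83) and Mx1 (0.28) lost their calls without Dnmt mGS 1. Xaf1 (1.83), Oas1a (1.0), Stat2 (0.75), Ifi35 (0.77) and Mx1 (0.19) lost their calls without the line labelled Dnmt mGS 2.

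Imprinted genes, whose parent-specific marks are kept by Dnmt1, gave few calls against iPS. Of 19 maternally expressed genes 0 rose and 2 fell, against 2.69% of all genes called lower: Ppp1r9a, a neuronal actin-binding protein, read 156, 187 and 288 against 430, 351 and 335 (−0.86 ± 0.23, adjusted p = 0.035), and Tssc4 differed by −0.32 ± 0.09 (adjusted p = 0.038). Ppp1r9a (−0.75) and Tssc4 (−0.31) lost their calls without iPS 1. Ppp1r9a (−0.90) and Tssc4 (−0.27) lost their calls without iPS 2. Ppp1r9a (−0.93) lost its call without iPS 5. Ppp1r9a (−0.67) and Tssc4 (−0.32) lost their calls without Dnmt mGS 1. Ppp1r9a (−0.80) and Tssc4 (−0.30) lost their calls without the line labelled Dnmt mGS 2. Of 25 paternally expressed genes none was called at an adjusted p of 0.05 by limma, and 5 were called lower without Dnmt mGS 3. The retrotransposon-derived Peg10 read 1589, 661 and 5492 against 7795, 8188 and 8792 (−2.20 ± 0.67, adjusted p = 0.055), and Nnat read 435, 203 and 1328 against 1733, 2551 and 2865 (−2.25 ± 0.79, adjusted p = 0.094). Dnmt mGS 3 was the highest of its group for both genes and still below iPS.

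Genes of the methylation machinery gave few calls, and Dnmt1 itself was not called. Of 17 genes, 0 rose and 1 fell, against 2.69% of all genes called lower: Mbd3, a subunit of the NuRD complex, read 778, 748 and 1237 against 1560, 1561 and 1529 (−0.79 ± 0.23, adjusted p = 0.047). Mbd3 (−0.79) lost its call without iPS 1. Mbd3 (−0.79) lost its call without iPS 2. Mbd3 (−0.80) lost its call without iPS 5. Mbd3 (−0.69) lost its call without Dnmt mGS 1. Mbd3 (−0.66) lost its call without the line labelled Dnmt mGS 2. Uhrf1, which brings Dnmt1 to replicating DNA, read 2830, 2622 and 2074 against 2190, 2148 and 1700 (0.31 ± 0.21, adjusted p = 0.42). The de novo enzyme Dnmt3b read 807, 534 and 1804 against 1601, 1780 and 1776 (−0.90 ± 0.52, adjusted p = 0.34), again with Dnmt mGS 3 apart from the other lines of its group. Of 17 glycolysis genes 0 rose and 1 fell, against 2.69% of all genes called lower, with a median of −0.30 and 13 genes below 0. Their summed intensity was 57904, 56549 and 53579 against 65741, 66738 and 71431. The called gene, the glucose transporter Slc2a1, read 3595, 3084 and 4126 against 5286, 6031 and 7291 (−0.78 ± 0.18, adjusted p = 0.015). Slc2a1 (−0.80) lost its call without iPS 2. Slc2a1 (−0.66) lost its call without iPS 5. Slc2a1 (−0.79) lost its call without Dnmt mGS 1. Slc2a1 (−0.67) lost its call without the line labelled Dnmt mGS 2.

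Of 27 naive pluripotency genes, 0 rose and 0 fell, with a median of −0.01. Sox2 differed by 0.11 ± 0.45 and Klf4 by −0.73 ± 0.45, neither called. Likewise 0 genes were called among 22 of the primed epiblast and mesendoderm, 21 of the primitive endoderm and 21 of proliferation. Of 17 trophoblast genes 0 rose and 1 fell, Fgfr2, against 2.69% of all genes called lower. The trophoblast median was −0.07, and the summed intensity 6739, 5931 and 6902 against 8368, 10074 and 11817. Of 16 listed genes of the 2-cell-like state only 5 were measured, and only 2 of these had a group mean above background. All 5 were below 0 and 1 fell, Eif1a (−0.37 ± 0.08), against 2.69% of all genes called lower. Eif1a lost its call without iPS 1 (−0.34) and without iPS 2 (−0.37). Markers of feeder cells varied between lines: the summed intensity of 22 feeder and fibroblast genes was 21998, 15562 and 56651 in the Dnmt mGS lines and 18628, 22180 and 21931 in the iPS lines. None of the 22 was called, with a median difference of 0.50 and 15 of 22 above 0. For some the lines did not overlap: the matrix gene Dcn read 2298, 930 and 2738 against 324, 412 and 700 (1.99 ± 0.68, adjusted p = 0.085), and Lum 316, 127 and 765 against 51.3, 73.3 and 118 (2.04 ± 0.87, adjusted p = 0.17). With the feeder level of each line as a covariate, 19 germline genes were called higher and 19 immediate-early genes lower. That fit also called more genes in all: 1936 of 19938 higher and 1270 lower, against 834 and 536 without the covariate. Of 16 testis somatic genes only Aard was called.

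**Figure D5:**
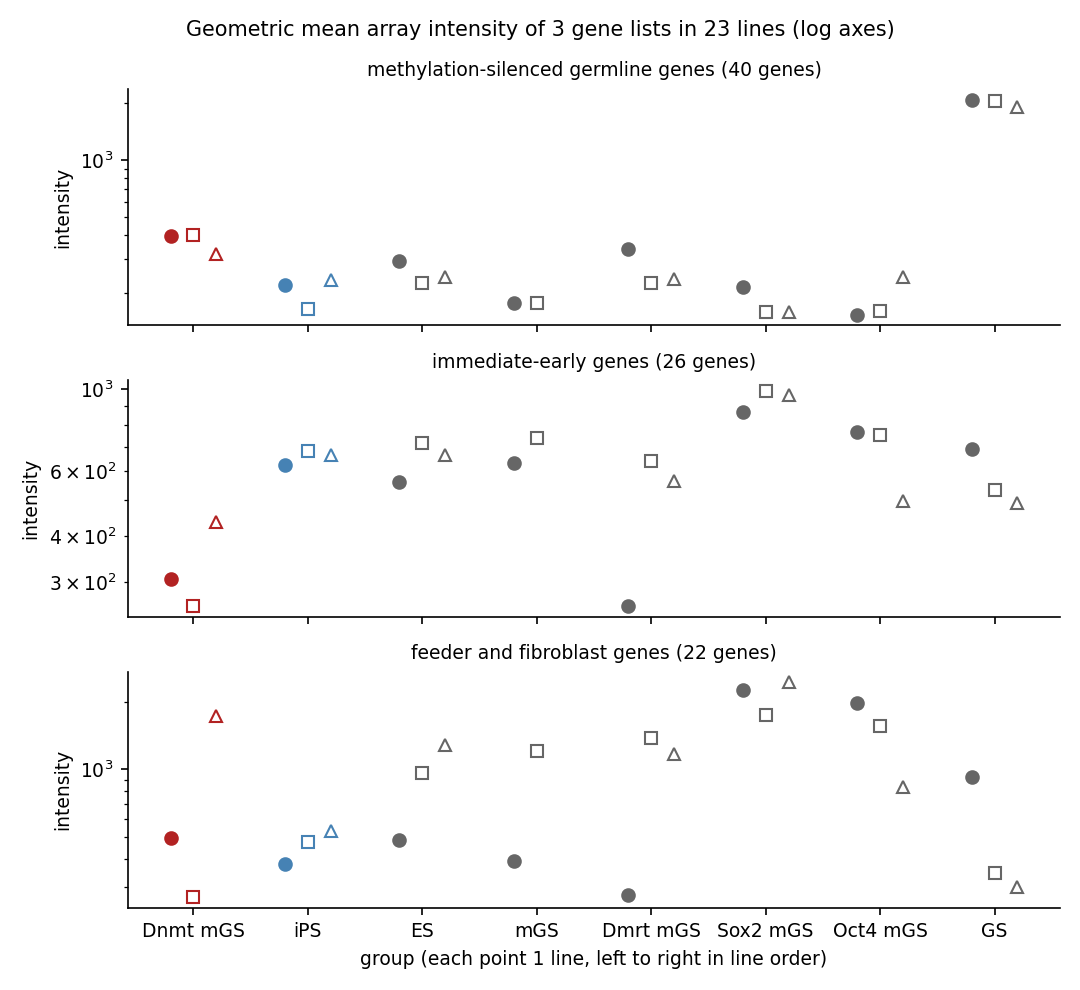
Geometric mean array intensity (log axes) of the methylation-silenced germline, immediate-early and feeder lists in each of the 23 lines, 1 point per line, by group. The 3 Dnmt mGS lines and Dmrt mGS 1 have the highest germline levels outside GS and the lowest immediate-early levels, and Dnmt mGS 3 has a feeder level near those of the Sox2 and Oct4 routes.

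The second comparison set the same 3 Dnmt mGS lines against the mean of the Dmrt, Sox2 and Oct4 routes, and so shares them with the first. In it 3833 genes (19.2%) were called by limma, 1766 higher (8.86%) and 2067 lower (10.4%), or 1852 and 1179 with centred arrays and 1963 and 1526 after quantile normalization. The count was 543 without Dnmt mGS 1, 1489 without the line labelled Dnmt mGS 2, 4452 without Dnmt mGS 3 and 2894 with the line labelled Dnmt mGS 2 and Dmrt mGS 1 both left out. Of the 40 germline genes, 23 were higher and 0 lower, with a median of 0.76, and 17 of the 26 immediate-early genes were lower and 0 higher, with a median of −1.06. Without Dnmt mGS 1 these counts were 11 and 4, and without the line labelled Dnmt mGS 2 they were 13 and 8. With that line and Dmrt mGS 1 both left out they were 21 and 15. Other lists had calls here too, against 8.86% of all genes higher and 10.4% lower. Of 27 naive pluripotency genes 11 were higher and 2 lower (median 0.64), and of 25 paternally expressed imprinted genes 0 were higher and 7 lower (median −0.43). Of 22 primed epiblast and mesendoderm genes 3 were lower (median −0.52), a count near the 10.4% of all genes called lower. The 22 feeder genes had a median of −1.0 with none called at an adjusted p of 0.05 by limma. Without Dnmt mGS 1 no gene of the naive, imprinted or primed lists was called. Without the line labelled Dnmt mGS 2 the naive counts were 2 higher and 1 lower, and the imprinted counts 1 higher and 1 lower. The part of pluripotency state and feeder content in the germline and immediate-early counts was not tested beyond the counts with the feeder level as a covariate.

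Dmrt mGS 1, which is labelled with another route, had values like those of the Dnmt mGS lines for both lists, as seen after its values were known. Its Dnmt1 value was 2772, near the 2752 of the line labelled Dnmt mGS 2 and unlike the 620 and 647 of Dnmt mGS 1 and 3. For Dmrt1 it read 191, against 413 and 554 in Dmrt mGS 2 and 3 and 218, 220 and 665 in the Dnmt mGS lines. Its germline sum was 23758, against 8302 to 15903 in the other 8 lines of the 3 routes, and its immediate-early sum was 11605, against 19908 to 33839. Germline sums were 27179 in the line labelled Dnmt mGS 2 and 22129 in Dnmt mGS 3, and the part of the Dnmt1 level in these sums was not tested. For Egr2 Dmrt mGS 1 read 131, where the other 8 lines read 190 to 1099. Feeder genes were low in it too, with a sum of 16275 against 33893 to 75941, and the part of feeder content in these differences was not tested. With the feeder level as a covariate, 20 germline genes were higher and 10 immediate-early genes lower than in the other routes. In that fit 740 of all 19938 genes were higher and 945 lower.

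Several genes called against iPS were not called against the other routes. Mid1 differed from the other routes by −0.96 ± 0.40 (adjusted p = 0.093), Aard by −0.04 ± 0.32 (adjusted p = 0.94) and Mir15b by less than its error (adjusted p = 0.99). Meioc, with 1225 in Dnmt mGS, read 648 to 818 in the means of the other routes (0.72 ± 0.33, adjusted p = 0.12). Slc25a31, Gtsf1, Sycp1 and Majin were called in both comparisons: Sycp1 was higher in Dnmt mGS by 1.5 ± 0.2 (adjusted p = 0.00052), Gtsf1 by 2.62 ± 0.39 (adjusted p = 0.0014) and Majin by 1.64 ± 0.31 (adjusted p = 0.0041). Egr1 was lower than in the other routes by 1.30 ± 0.10 on the log2 scale (adjusted p = 2.7e-06).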

How the data were processed

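RNA was measured on Affymetrix whole-transcript mouse arrays, 1 per culture, as linear array intensity from 16 to 27420. The authors deposited these intensity values for 28856 probe sets already processed; how they were summarised, scaled or floored could not be learned from the labels, and the submitters' processing notes name the build mm9. Log2 was taken of the deposited values, with no further scaling or pseudocount. Of the probe sets, 21789 had 1 gene symbol, 1621 several and 5446 none; only the first were named, and for 999 genes with several probe sets the brightest was kept, which left 19938 genes. Symbols of 21698 probe sets matched the reference and 0 changed.

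The line was the replicate, as the log2 mean of its 2 cultures. A single limma model (limma 3.58.1, statmod 1.5.0, R 4.3.3; 15 residual and 2.71 prior degrees of freedom) was fitted to 23 line means in 8 groups, and p-values were adjusted by Benjamini-Hochberg over all genes at 0.05. Tables were made with pandas 2.3.3 and numpy 2.4.6 and plots with matplotlib 3.10.9, under Python 3.11.15. The fit was tested on simulated data. The number of arrays limits the precision. Replicate numbers did not pair the samples: deviations from group means of same-numbered lines correlated at 0.219 and −0.04, and those of same-numbered cultures at −0.438 to 0.389.

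Genes were named as the 12 highest and 12 lowest differences among called genes whose lines did not overlap and whose brighter mean was above background, up to 6 called members of each list and any called member against its list's direction, and Slc25a31, Egr2, Dnmt1, Dmrt1, Sox2, Pou5f1, Klf4 and Myc. Smaller called members, microRNA genes outside the lowest 12, and uncalled genes given for comparison (Cd3d, Cd3e, Ddx4, Dazl, Hormad1, Spry4, Dusp6, Mcm7, Mdm2, Ifit1, Oasl2, Nanog, Zbtb16 and Dnmt3b, among others) were chosen after their values were seen. Nanog, Zbtb16 and Ddx4 belong to a longer list of cell type markers named in the plan, of which only some are given here. The comparison, the members and the lists were chosen with earlier results of these data known. Alternatives covered the replicate unit, the samples fitted, scaling, filters, the floor, moderation, probe sets, blocks, left-out lines and a feeder covariate; the last, and fits without Oct4 mGS 1, Dmrt mGS 1 or the line labelled Dnmt mGS 2 together with Dmrt mGS 1, were added after seeing the data.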

Additional observations from a re-analysis of the deposited data

Results flagged for a closer look

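The 12 highest and 12 lowest genes against iPS, with Slc25a31, Egr2 and Dnmt1, 27 genes in all, were examined against the other routes, a comparison in which 19.2% of all genes were called. Most were picked for extreme values in the same Dnmt mGS lines, so a share above 19.2% is partly built in and is not a test. For 21 of these 27 the difference from iPS differed between the Dnmt1 route and the mean of the other 3 lentiviral routes, which is the same as the difference between Dnmt mGS and those routes, since the iPS lines cancel (limma, adjusted p under 0.05). The log2 values were 3.05 for Cd3g, 2.87 for Pramel6, 2.82 for 1700013H16Rik, 2.64 for Smc1b, 2.62 for Gtsf1, 2.62 for Qpct and 2.48 for Slc1a1. They were 2.43 for Calr4, 2.33 for 1700018B24Rik, 2.30 for 1700016D06Rik, 2.02 for Nckap1l and 1.95 for Slc25a31. Negative values were found for Fosb (−2.62), Eif2s3y (−2.47), Egr2 (−2.05), Lpar6 (−1.93), Fermt1 (−1.80), Mir363 (−1.73), Fos (−1.66), Ramp3 (−1.55) and Dnmt1 (−1.07).

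Without Dnmt mGS 1, 12 of the 21 were not called: Cd3g (2.42), Smc1b (2.55), Slc1a1 (2.22), 1700016D06Rik (1.81), Eif2s3y (−2.16), Fosb (−2.64), Mir363 (−1.56), Lpar6 (−1.77), Ramp3 (−1.26), Fermt1 (−1.60), Fos (−1.85) and Dnmt1 (−0.70). Without the line labelled Dnmt mGS 2, 9 were not called: Cd3g (2.42), Slc1a1 (2.05), 1700016D06Rik (1.83), Eif2s3y (−2.08), Fosb (−2.19), Lpar6 (−1.74), Ramp3 (−1.25), Fermt1 (−1.56) and Fos (−1.34). Without Dnmt mGS 3 the call for Dnmt1 (−0.73) was lost. With the line labelled Dnmt mGS 2 and Dmrt mGS 1 left out together, 1 of the 21, Eif2s3y (−2.08), was not called. With the feeder level as a covariate 5 were not called: Cd3g (1.88), Eif2s3y (−2.07), Ramp3 (−1.07), Fermt1 (−1.17) and Fos (−1.02). Slc1a1 (1.37), 1700016D06Rik (1.42), Fosb (−1.63) and Lpar6 (−1.24) kept their calls at values more than 1.5 times smaller.

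Among the 6 iPS arrays, the first culture of iPS 5 stood apart for Fosb, with 2980 against 1280 to 1700 in the other 5; its gap to the nearest array was 0.669 of the range, beyond Dixon's 95% critical value for 6 arrays. Chance gives about 1 such group in 20, and 66 groups were tested with 1 found.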

How the results depend on the processing

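Of the 159 differences named or listed, 0 reversed in any fit, and 82.8% of their values kept both direction and side of the threshold. The count of 1370 genes called against iPS was 5192 with every array as an independent sample, 2789 with the line as a random block and 877 with only the groups compared. With the culture number as a replicate block it was 2742, and with the line number as a replicate block 819; the numbers do not pair the samples. It was 3206 with the feeder level as a covariate, 2078 without Dmrt mGS 1, and 279 to 1859 when a line of either group was left out. The count of 3833 against the other routes was 8945 with every array independent, 1850 with only the groups compared, 1685 with the feeder covariate and 543 to 4452 when a Dnmt mGS line was left out. Other settings moved the count against iPS little: 1204 without the dimmest 40% of genes, 1371 with a floor at background, 1347 with an intensity trend, 1369 with probe sets averaged and 1359 without Oct4 mGS 1. Scaling ended some calls: with quantile normalization those of Slc1a1 (2.58), Syce1 (1.34), Pramel1 (0.63), Ifi35 (0.70), Psrc1 (−1.23), Stra8 (0.56) and Mx1 (0.22), and with centred arrays those of Slc1a1 (2.64), Tuba3a (1.67), Syce1 (1.33), Pramel1 (0.66), Stra8 (0.54), Mx1 (0.18), Mir340 (0.67) and Mir216b (0.29). The causes were not tested. Genes under the background level of 161.1 have bounds only, which holds for most hairpin genes of microRNAs. With 3 lines a group, many calls were lost when a line was left out, mostly at a difference of similar size.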

Other observations

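Some values fall outside the lists of the report and were noticed after the data were seen. Zcwpw1, a histone reader of meiotic recombination, read 999, 1252 and 1091 in Dnmt mGS 1, 2 and 3 and 382, 257 and 373 in iPS 1, 2 and 5 (1.74 ± 0.26, adjusted p = 0.0015, limma). Aim2, a sensor of cytosolic DNA, read 1381, 2229 and 939 against 377, 210 and 434 (2.13 ± 0.46, adjusted p = 0.012). Xrcc5, a subunit of the Ku complex that joins DNA ends, read 812, 853 and 829 against 2470, 2489 and 2281 (−1.54 ± 0.19, adjusted p = 0.00057), and Sgf29, a chromatin reader of the SAGA complex, read 196, 288 and 331 against 796, 811 and 811 (−1.60 on the log2 scale). The lines of the groups did not overlap in any of these genes. The means of the Dmrt, Sox2 and Oct4 routes were 789.3, 910.4 and 733.6 for Xrcc5 and 333.6, 399.4 and 341.7 for Sgf29.

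Among 20 H/ACA small nucleolar RNA genes, 0 were called higher and 12 lower in Dnmt mGS, with a median of −0.52, against 2.69% of all genes called lower. The count was 11 after quantile normalization and 12 with centred arrays, and 2 to 10 when any one line was left out. Of 31 C/D small nucleolar RNA genes 3 were lower, a count that was 0 without iPS 1, iPS 2 or Dnmt mGS 1, 1 without iPS 5 or the line labelled Dnmt mGS 2, and 6 with centred arrays. Of 22 small and 35 large ribosomal subunit protein genes 2 and 3 were lower, and without a line these counts were 0 to 1 and 1 to 3. These families did not have the same direction against the other routes, where 8.86% of all genes were higher and 10.4% lower. There 1 H/ACA gene was higher and 1 lower (median 0.03), and 12 C/D genes were higher and 1 lower (median 0.26). Of the small subunit genes 6 were higher and 0 lower, and of the large subunit genes 8 were higher and 1 lower. On chromosome 4, 85 of 1154 genes (7.37%) were called higher and 22 lower, against 4.18% of all genes called higher. Chromosomes 5 (6.14%), 15 (5.61%), X (5.41%), 12 (5.06%), 13 (4.78%), 6 (4.55%), 2 (4.33%) and 9 (4.29%) were above that share too. The split of calls moves with the scaling, as given above. The median log2 deviation of chromosome 4 genes from the lines that were not GS was 0.12 in Dnmt mGS 1. It was 0.03 in the line labelled Dnmt mGS 2, 0.02 in Dnmt mGS 3, and −0.02 in iPS 2 and iPS 5.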
